A study of Rattus norvegicus with 4 samples.

Results

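The genes described here encode the 3 TGF-beta ligands (Tgfb1, Tgfb2, Tgfb3), their 3 receptors (Tgfbr1, Tgfbr2, Tgfbr3) and the 4 latent TGF-beta binding proteins (Ltbp1 to Ltbp4). They were taken by name and matched to the arrays through the accession of each probe. All 10 were present, with 13 probes, among 26633 genes and transcripts. RNA of male rat soleus, a calf muscle rich in slow fibres, was hybridised to 4 one-colour Agilent arrays. Regenerated overloaded and overloaded muscle came from rats aged 18 weeks, and regenerated and normal muscle from rats aged 16 weeks. The regenerated group had received CTX 8 weeks earlier; the abbreviation, left unexplained by the submitters, usually stands for cardiotoxin, used in muscle research to injure fibres so that they regenerate. The time since injection of the regenerated overloaded muscle is not given. The overloaded group is labelled as hypertrophied, without a statement of how load was raised. In each group, equal amounts of RNA from 6 muscles were mixed for 1 array, so n = 1 throughout. Differences between groups therefore lack any check by replication, and no p-value is given.

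TGF-beta is secreted bound to its own propeptide, which holds it inactive, and this complex is usually joined to a latent TGF-beta binding protein that anchors it in the extracellular matrix. Integrins or proteases release the ligand, which binds the type II receptor (Tgfbr2). That receptor activates the type I receptor (Tgfbr1), which phosphorylates SMAD proteins that enter the nucleus. In skeletal muscle TGF-beta is known for restraining myogenic differentiation and for stimulating fibroblasts to make matrix.

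Levels are given as a percentage of the array's own 75th percentile of processed signal, a scale on which the 4 arrays can be set side by side for 1 probe. Levels of different probes cannot be compared. The error of a log2 difference is a technical standard error (SE) from the spread between repeated spots, which says nothing of the spread between muscles. The number of arrays limits the precision. On the manipulated arrays 68.1% to 70.6% of spots were well above background, against 60.4% on the normal array. Local background had a median of 32 or 33 intensity units there and 44 on the normal array. The overloaded groups lay in slide row 2 and the others in row 1, so age, slide row and load cannot be told apart. All 10 fibre markers of slow muscle or muscle in general, Myh7 and Tnnt1 among them, were well above background on every array, which fits the labelled tissue.

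**Figure D1:**
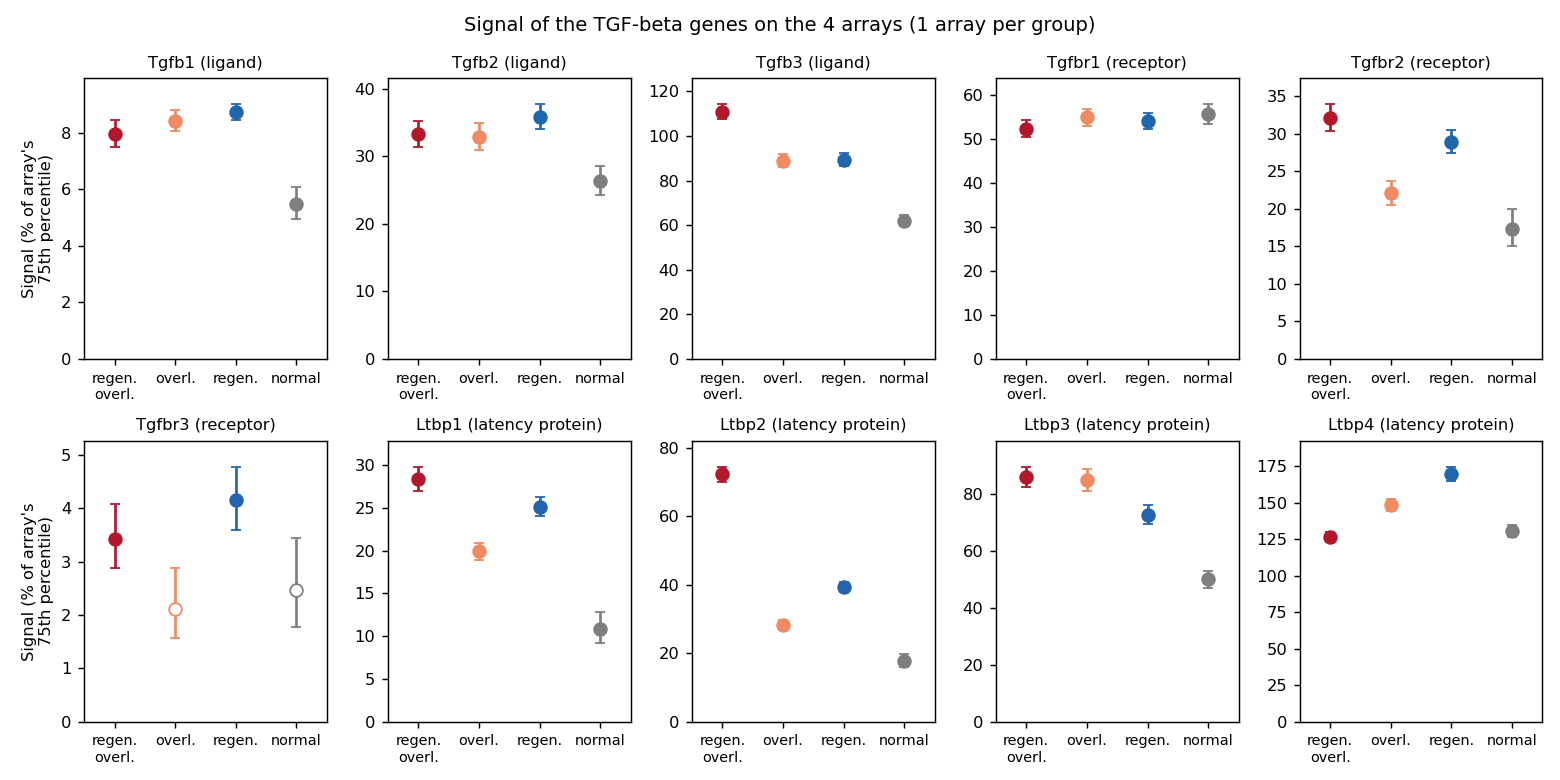
Signal of each gene on the 4 arrays, as a percentage of the array's 75th percentile (vertical axes start at 0 and differ between panels). Points are the mean over the spots of the gene's brightest probe, bars are 1 technical SE on the log2 scale, and open points were not well above background. Normal muscle has the lowest point for 7 genes, and Ltbp2 spans the widest range, 72.4% in regenerated overloaded against 17.8% in normal muscle.

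Among the ligands, Tgfb3 was higher in each manipulated muscle than in normal muscle, and higher again where injury and overload were combined. The signal of Tgfb3, an isoform that shares receptors with the other two, was 111% in regenerated overloaded, 88.9% in overloaded, 89.4% in regenerated and 62.0% in normal muscle. The regenerated and overloaded arrays could not be separated within 2 technical SE, while the regenerated overloaded array stood above both and the normal array below. The difference was 0.53 for regenerated against normal (log2, technical SE 0.077) and 0.52 for overloaded against normal (0.075). It was 0.31 for regenerated overloaded against regenerated (0.064) and 0.32 for regenerated overloaded against overloaded muscle (0.062). None of these reached 2-fold, the limit used for calling a gene higher or lower.

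Tgfb1, the isoform most studied in fibrosis, gave a dim signal of 7.96% in regenerated overloaded, 8.42% in overloaded, 8.73% in regenerated and 5.48% in normal muscle. The 3 manipulated muscles lay close together, and normal muscle was apart from them. Its probe was printed 10 times. The lowest usable spot on any manipulated array read 7.02% and the highest on the normal array 6.79%. These spots repeat 1 probe on 1 array per group and say nothing of the spread between muscles. All usable spots of the manipulated arrays were well above background, against 6 of 9 on the normal array. The difference was 0.67 for regenerated against normal (log2, technical SE 0.16) and 0.62 for overloaded against normal (0.16). With normexp, a background correction that draws dim signals together, these differences were 0.15 and 0.01. Between regenerated overloaded and regenerated muscle the difference was -0.13 (0.099), and against overloaded muscle -0.08 (0.11), both within 2 technical SE.

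Tgfb2, the isoform that depends most on the co-receptor Tgfbr3 for binding, read 33.3% in regenerated overloaded, 32.9% in overloaded, 35.8% in regenerated and 26.4% in normal muscle, from 1 spot per array. The 3 manipulated muscles again lay together above normal muscle. The difference was 0.44 for regenerated against normal (log2, technical SE 0.14) and 0.32 for overloaded against normal (0.15). A second, dimmer Tgfb2 probe was not well above background in normal muscle. On it regenerated overloaded exceeded overloaded muscle by 0.41 (technical SE 0.33), where the brighter probe gave 0.02 (0.12). It exceeded regenerated muscle by 0.20 (0.26), where the brighter probe gave -0.11 (0.11). The dimmer probe's 2 spots on the regenerated overloaded array read 3.55% and 11.7%, a spread that the pooled technical SE does not show.

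The receptors did not follow each other. Tgfbr1, the signalling type I receptor ALK5, read 52.3% in regenerated overloaded, 54.8% in overloaded, 54.0% in regenerated and 55.5% in normal muscle. No neighbouring pair in that order differed by 2 technical SE, and the 4 arrays spanned 1.06-fold. Its difference stayed between -0.07 and -0.02 over the 4 comparisons (log2, technical SE 0.070 to 0.079), and for both comparisons with normal muscle its sign changed under some scalings, up to 0.16.

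Tgfbr2, the type II receptor that binds the ligand first, read 32.1% in regenerated overloaded, 22.1% in overloaded, 28.9% in regenerated and 17.4% in normal muscle, from 1 spot per array. Both muscles with earlier injury stood above both without it. The difference was 0.74 for regenerated against normal (log2, technical SE 0.22) and 0.54 for regenerated overloaded against overloaded muscle (0.13). The overload differences were smaller, 0.35 for overloaded against normal (0.23) and 0.15 for regenerated overloaded against regenerated muscle (0.11), each within 2 technical SE. A dimmer Tgfbr2 probe, also with 1 spot and not above background in normal muscle, gave the same order, at 12.1%, 5.75%, 9.43% and 3.53%. On that probe regenerated overloaded exceeded overloaded muscle by 1.07 (technical SE 0.31). With the mean over both probes regenerated exceeded normal muscle by 1.08, a value that takes the 3.53% in normal muscle as measured.

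Tgfbr3, the co-receptor betaglycan, was near the limit of detection. It read 3.43% in regenerated overloaded and 4.15% in regenerated muscle, where it was well above background, and 2.12% in overloaded and 2.48% in normal muscle, where it was not. Regenerated overloaded read 1.62-fold higher than overloaded muscle (log2 difference 0.69, technical SE 0.51), which lay within 2 technical SE. The overloaded array's own dim signal entered this value, so 1.62-fold is not a lower bound. Against normal muscle no fold can be given, since detection on that array began at 4.33%.

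**Figure D2:**
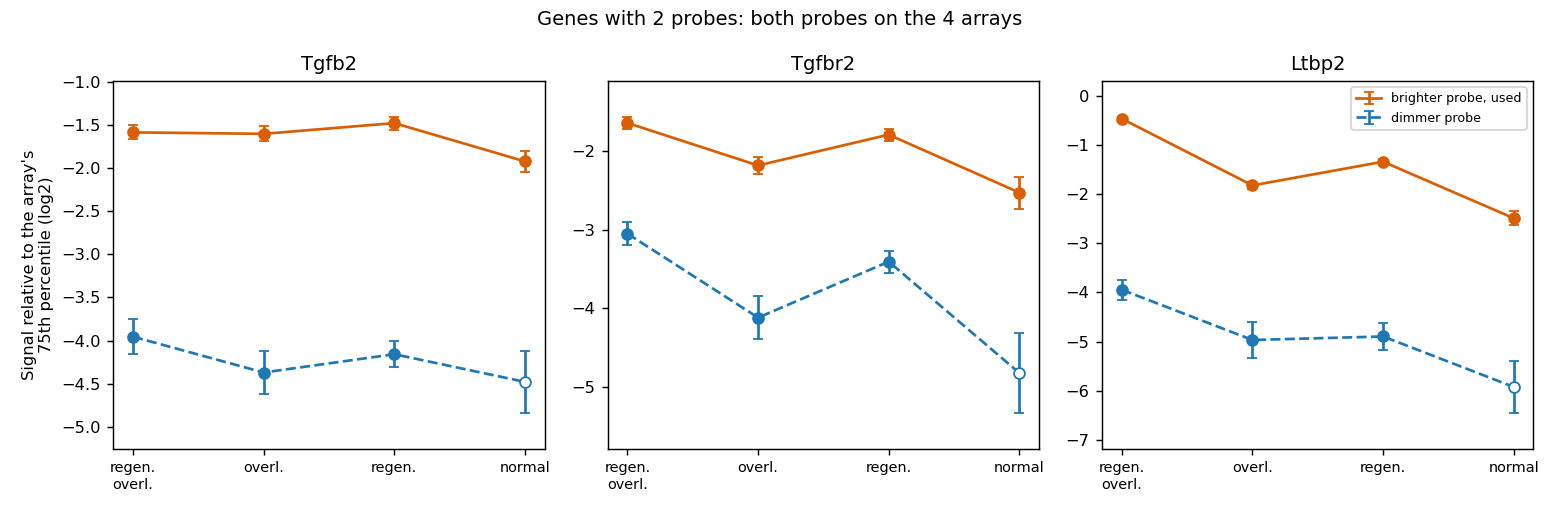
Both probes of the 3 genes that had 2, as log2 signal relative to the array's 75th percentile. Points are means over spots, bars 1 technical SE, open points not well above background, and lines join the points of 1 probe. Both Tgfbr2 probes place the regenerated overloaded array highest and normal lowest, and both Ltbp2 probes do the same. The dimmer Tgfb2 probe differs from the brighter one for regenerated overloaded muscle, where its 2 spots read 3.55% and 11.7%.

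The latency proteins held the largest differences, those of Ltbp1 and Ltbp2. The start regions of these genes in RefSeq (build GRCr8) are shown because they were also the only 2 of the 10 with a SMAD box in that window. The window runs from 250 bases before to 50 bases after the annotated start; the array headers place the probes on the older build rn4, and no coordinates were carried between the builds. Both lie on chromosome 6, Ltbp1 at chr6:26177252-26177551 and Ltbp2 at chr6:110257249-110257548, both on the minus strand and written 5′ to 3′ along the gene. Capitals mark the box, CAGAC or its complement GTCTG on either strand.
Ltbp1: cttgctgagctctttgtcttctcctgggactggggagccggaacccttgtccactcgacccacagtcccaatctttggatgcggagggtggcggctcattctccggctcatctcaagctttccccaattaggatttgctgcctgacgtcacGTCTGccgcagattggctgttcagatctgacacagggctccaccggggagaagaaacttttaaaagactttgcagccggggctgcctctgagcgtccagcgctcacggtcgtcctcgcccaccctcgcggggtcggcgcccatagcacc
Ltbp2: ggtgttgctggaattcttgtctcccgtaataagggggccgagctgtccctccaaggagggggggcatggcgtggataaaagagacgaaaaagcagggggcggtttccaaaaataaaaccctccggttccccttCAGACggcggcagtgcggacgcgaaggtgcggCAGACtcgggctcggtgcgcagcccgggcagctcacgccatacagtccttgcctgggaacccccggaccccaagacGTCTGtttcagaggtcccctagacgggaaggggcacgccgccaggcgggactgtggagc
The Ltbp1 window holds 1 box, beginning at -99 bases from the start, and the Ltbp2 window 3, at -117, -85 and -9. Of 33469 start regions of the same length, 50.1% hold at least 1. None of the 10 windows held the AP-1 site TGANTCA, present in 7.33% of all windows, or the TEAD site GGAATG or its complement CATTCC, present in 14.2%. A match is a run of letters, not a bound site, and no binding was measured.

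Ltbp2, which differs from the other family members in not binding the TGF-beta propeptide and is found with fibrillin in elastic fibres, read 72.4% in regenerated overloaded, 28.3% in overloaded, 39.5% in regenerated and 17.8% in normal muscle. All 4 arrays were separated by more than 2 technical SE, and the whole range was 4.07-fold. Regenerated overloaded muscle was 2.56-fold above overloaded muscle (log2 difference 1.36, technical SE 0.085), the largest difference of any of the 10 genes. It was 1.83-fold above regenerated muscle (0.87, technical SE 0.069). Regenerated muscle was 2.22-fold above normal (1.15, technical SE 0.15) and overloaded muscle 1.59-fold above normal (0.67, technical SE 0.16). Its dimmer probe gave differences of 1.02, 0.95, 1.03 and 0.96 for the same comparisons (technical SE 0.43, 0.35, 0.60 and 0.65), and was not above background in normal muscle.

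Ltbp1, which binds the propeptide and places the latent complex in fibronectin and fibrillin matrix, read 28.4% in regenerated overloaded, 19.9% in overloaded, 25.1% in regenerated and 10.8% in normal muscle. Both muscles with earlier injury were the highest and could not be separated from each other within 2 technical SE. Regenerated muscle was 2.32-fold above normal (log2 difference 1.22, technical SE 0.25) and overloaded muscle 1.84-fold above normal (0.88, technical SE 0.25). Regenerated overloaded muscle exceeded overloaded muscle by 0.51 (0.10) and regenerated muscle by 0.17 (0.095).

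Ltbp3, another carrier of latent TGF-beta, read 85.9% in regenerated overloaded, 84.8% in overloaded, 72.8% in regenerated and 49.98% in normal muscle, from 1 spot per array. Here the overloaded groups were highest, and they lay within 2 technical SE of each other. The difference was 0.76 for overloaded against normal (log2, technical SE 0.11) and 0.54 for regenerated against normal muscle (0.11).

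Ltbp4, an elastic-fibre protein whose variants modify muscular dystrophy in mice, ran the other way after combined treatment. It read 126% in regenerated overloaded, 149% in overloaded, 169.9% in regenerated and 131% in normal muscle. The regenerated overloaded array was the lowest, within 2 technical SE of normal. Regenerated overloaded muscle differed by -0.43 from regenerated (log2, technical SE 0.058) and by -0.23 from overloaded muscle (0.057), and no other of the 10 genes had a negative difference beyond 2 technical SE in either comparison. Against normal, Ltbp4 was 0.38 higher in regenerated (0.060) and 0.19 higher in overloaded muscle (0.059).

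**Figure D3:**
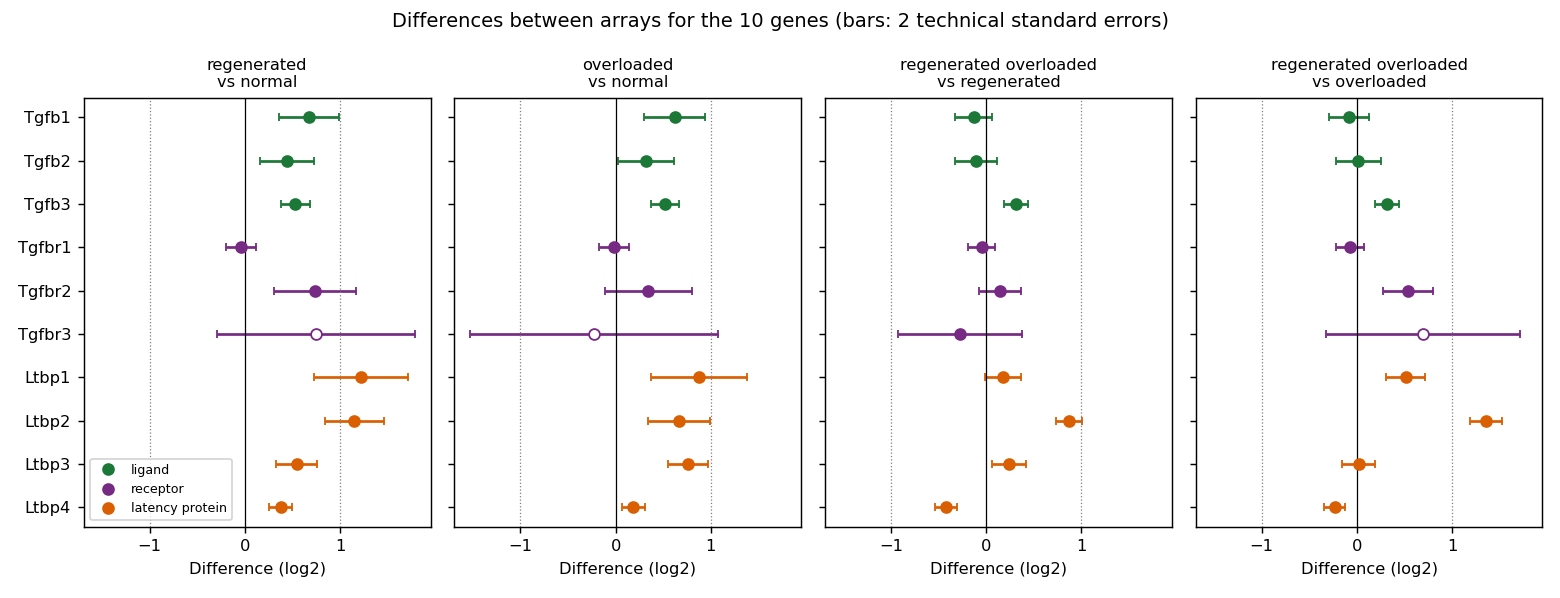
Log2 difference of the 10 genes in the 4 comparisons, the first-named array minus the second. Bars are 2 technical SE, dotted lines mark 2-fold, and open points had an array not well above background, so that their measured difference is not a fold. Only Ltbp1 and Ltbp2 pass 2-fold, both in regenerated against normal and Ltbp2 in regenerated overloaded against overloaded muscle.

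Counted over the group, 2 of 10 genes were 2-fold or more higher in regenerated than in normal muscle, Ltbp1 and Ltbp2, and none was lower. The 10 include Tgfbr3, for which no fold can be given here and which was counted as not passing. Of all 16911 genes and transcripts measured in that comparison, 1.92% differed 2-fold or more, and 1.24% were higher. The median over the 9 genes above background on both arrays was 0.54, with 8 above 0; the median over all such genes was -0.12, with 32.8% above 0. With normexp neither Ltbp1 (0.67) nor Ltbp2 (0.79) passed 2-fold. At 1.5-fold, 4 genes were higher, with Tgfb1 and Tgfbr2 added, where 5.62% of all genes were higher, 2.34% lower and 7.96% either.

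In overloaded against normal muscle 0 of 9 measured genes passed 2-fold, where 3.13% of all 17308 did and 2.37% were higher. At 1.5-fold 4 were higher, Tgfb1, Ltbp1, Ltbp2 and Ltbp3, where 7.79% of all genes were higher, 3.20% lower and 11.0% either. With normexp Tgfb1 (0.01), Ltbp1 (0.33) and Ltbp2 (0.33) no longer passed 1.5-fold. The median over the 9 genes was 0.52, against -0.13 over all genes, and 8 were above 0; with normexp it was 0.19, against -0.16. With the authors' deposited values Ltbp1 passed 2-fold, at 1.06. Both comparisons with normal muscle use the same normal array, on which 7 of the 9 genes above background everywhere had their lowest level. Over all 14417 such genes, normal muscle was lowest for 23.9% and highest for 55.6%.

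Neither of the other comparisons uses the normal array. In regenerated overloaded against regenerated muscle, 0 of 10 genes passed 2-fold, where 1.99% of all genes did and 1.56% were higher. Ltbp2 alone passed 1.5-fold, where 4.69% of all genes were higher, 2.38% lower and 7.07% either. The median was 0.05, against -0.02 over all genes. In regenerated overloaded against overloaded muscle, 1 of 10 passed 2-fold, Ltbp2, where 1.70% of all genes did and 1.02% were higher. At 1.5-fold Tgfbr3 was added, where 3.07% of all genes were higher, 2.30% lower and 5.37% either. Its difference of 0.69 lay within 2 technical SE (technical SE 0.51), and with normexp it was 0.32, below 1.5-fold. The median over 9 genes was 0.02, against -0.01 over all genes.

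The effect of overload could be set side by side with and without earlier injury for the 9 genes above background on all arrays. The difference of differences, overload in regenerated muscle minus overload in normal muscle, was below 0 for 8 of 9 genes, with a median of -0.43. Over all genes the median was 0.09, with 36.2% below 0. No gene reached 2-fold, where 0.749% of all genes did. At 1.5-fold 3 were lower, where 2.75% of all genes were lower, 1.77% higher and 4.52% either: Tgfb1 at -0.75 (technical SE 0.19), Ltbp1 at -0.70 (0.27) and Ltbp4 at -0.61 (0.083). With normexp none of the 3 reached 1.5-fold, at -0.18 for Tgfb1, -0.28 for Ltbp1 and -0.56 for Ltbp4. Ltbp3 followed at -0.52 (0.14) and Tgfb2 at -0.43 (0.19). Ltbp2 was the exception, at 0.21 (technical SE 0.18), within 2 technical SE of 0. With the mean over both of its probes it was 0.10 (0.38), and with the authors' deposited values 0.06 (0.18). All 9 values rest on the normal array too. With the authors' deposited values the median over all genes was -0.06, with 60.2% below 0, and that of the 9 genes -0.57. With normexp the median of the 9 genes was -0.18, against 0.10 over all genes.

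**Figure D4:**
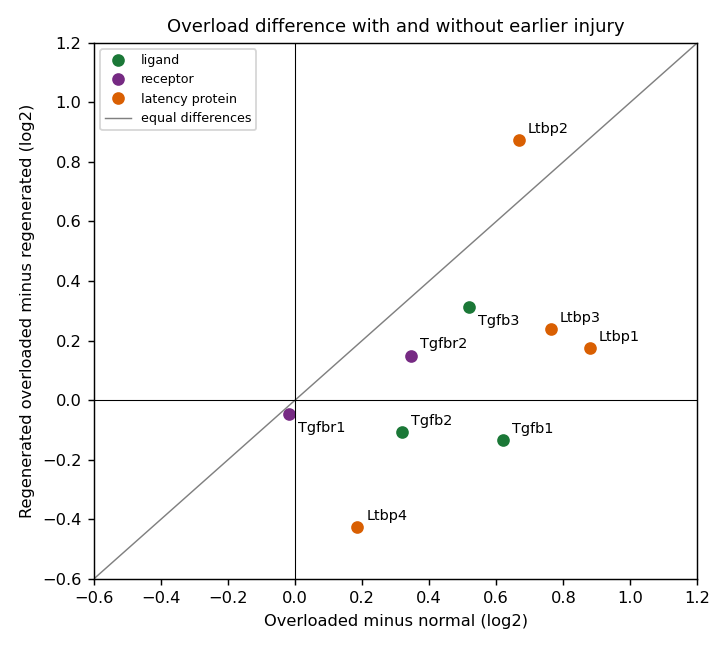
Overload difference after earlier injury (vertical, regenerated overloaded minus regenerated, log2) against that without it (horizontal, overloaded minus normal, log2) for the 9 genes above background on all arrays. The diagonal marks equal differences. Ltbp2 is the only gene above it, by less than 2 technical SE. Tgfbr1 lies close to the diagonal, and Tgfb1, Tgfb2 and Ltbp4 have a positive horizontal and a negative vertical value.

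Of 18 listed genes that activate or anchor latent TGF-beta, 13 could be measured. Fbn2 (fibrillin 2), Mmp2 and Mmp14 (matrix metalloproteinases, of which Mmp14 activates Mmp2) were 2-fold or more higher in regenerated than in normal muscle, at 1.37, 1.16 and 1.26 on the log2 scale, and none was lower. The same 3 passed in overloaded against normal muscle, at 2.26, 1.43 and 2.26. The list medians were 0.39 and 0.59, against -0.07 and -0.05 over all measured genes. Of all genes, 1.24% and 2.37% were 2-fold or more higher in these 2 comparisons. Fbn2 (1.79) and Mmp14 (1.23) also passed in regenerated overloaded against regenerated muscle, where the median was 0.27 and 1.56% of all genes were higher. Against overloaded muscle 0 of the 13 passed, with a median of 0.20, where 1.02% of all genes were higher. Bmp1, a protease that processes procollagen, read 422% in regenerated overloaded, 368% in overloaded, 330.5% in regenerated and 216% in normal muscle. Itgb6, a subunit of an integrin that releases TGF-beta from its propeptide, had the opposite order, at 401%, 474%, 531% and 637%, without passing 2-fold. Thbs1 (thrombospondin 1), another activator, was below background on every array.

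Of 9 listed co-receptors and extracellular binders, 8 were measured. In regenerated and in overloaded against normal muscle 1 and 2 were 2-fold or more higher, where 1.24% and 2.37% of all genes were. In regenerated overloaded muscle 2 passed against regenerated and 1 against overloaded muscle, where 1.56% and 1.02% of all genes were higher. None was 2-fold lower, and between 1 and 3 of the 8 were below 0 in each comparison. The list's median lay between 0.10 and 0.27, and that over all measured genes between -0.07 and -0.01. Vasn (vasorin), which traps TGF-beta, was 2.15-fold higher in regenerated than in normal muscle and 2.16-fold higher in overloaded than in normal muscle, from 1 spot. Bgn (biglycan), a matrix proteoglycan that binds TGF-beta, was 2.66-fold higher in overloaded than in normal and 2.02-fold higher in regenerated overloaded than in regenerated muscle. Fmod (fibromodulin), a related proteoglycan, was 2.27-fold higher in regenerated overloaded than in regenerated muscle and 2.50-fold higher than in overloaded muscle.

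Inside the cell, 13 of 17 listed signalling genes and inhibitors were measured, and none of these passed 2-fold. Smad3, Smad6, Ski and Skil could not be matched to a probe. All 13 measured genes of intracellular signalling and its inhibitors stayed between -0.40 and 0.54 on the log2 scale in the 4 comparisons. Their medians lay between -0.09 and -0.02, and those over all measured genes between -0.07 and -0.01. Smad7, the inhibitory SMAD induced by TGF-beta, read 48.0% in regenerated overloaded, 50.04% in overloaded, 61.2% in regenerated and 58.7% in normal muscle. Pmepa1, another induced inhibitor, read 248% in regenerated overloaded, 169.98% in overloaded, 201% in regenerated and 152% in normal muscle.

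Among 14 genes known from cell studies as TGF-beta targets, 3 were 2-fold or more higher in regenerated and 2 in overloaded against normal muscle. In regenerated overloaded muscle 2 passed against regenerated and 1 against overloaded muscle, and none was lower in any comparison. Over all genes 1.24%, 2.37%, 1.56% and 1.02% were higher in these comparisons. The genes that passed were Col1a1, Fn1, Timp1 and Cdkn2b. Col1a1 (type I collagen) was 2.57-fold higher in regenerated than in normal, 3.55-fold higher in overloaded than in normal and 2.10-fold higher in regenerated overloaded than in regenerated muscle. Fn1 (fibronectin) was 2.32-fold and 2.42-fold higher in the comparisons of regenerated and overloaded with normal muscle. Timp1, a metalloproteinase inhibitor, was 2.26-fold higher in regenerated overloaded than in regenerated muscle. Cdkn2b, the cell-cycle inhibitor p15, was well above background but for the normal array, and was at least 3.04-fold higher in regenerated than in normal muscle. Regenerated overloaded exceeded overloaded muscle 3.67-fold. Ccn2 (connective tissue growth factor) read 395% in regenerated overloaded, 278% in overloaded, 466% in regenerated and 287% in normal muscle. Over the 4 comparisons the list's median lay between 0.18 and 0.25, and that over all measured genes between -0.07 and -0.01.

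**Figure D5:**
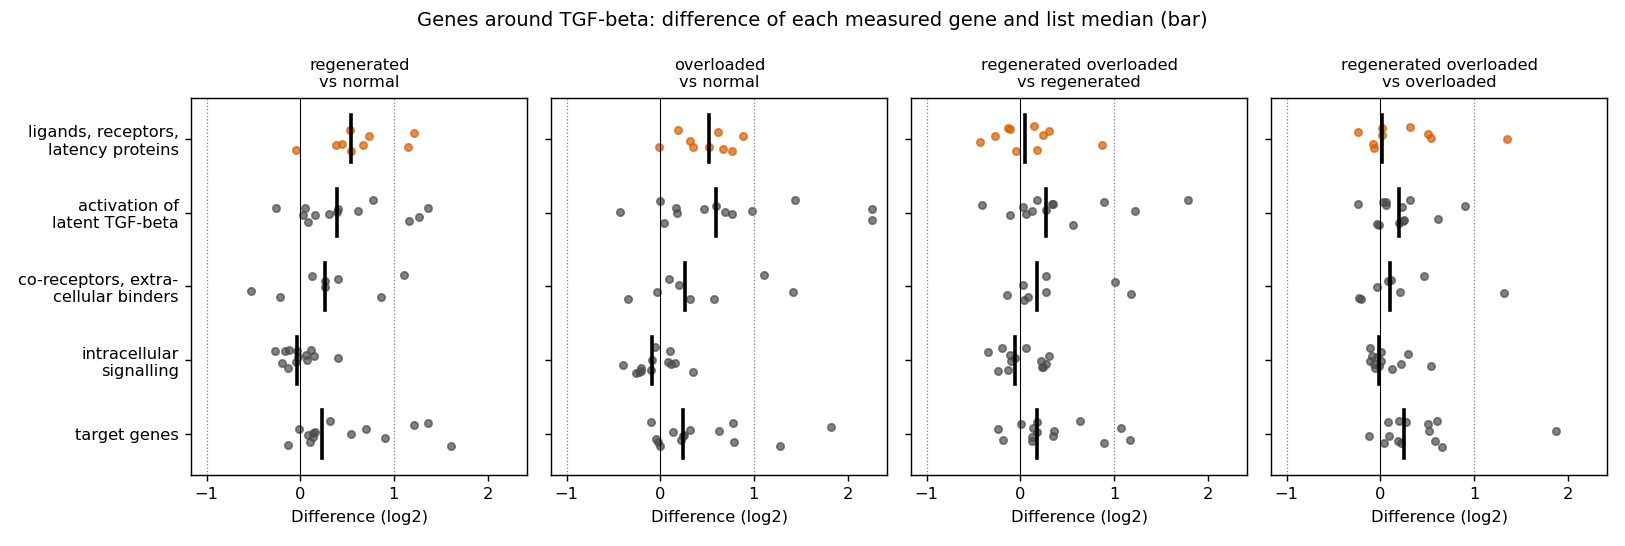
Log2 difference of each measured gene in 5 groups, for the 4 comparisons; black bars are the medians of the points shown and dotted lines mark 2-fold. The 10 genes are shown where above background on both arrays, and genes of the other lists also at their at-least difference. The points of intracellular signalling stay between -0.40 and 0.54, and those of activation and target genes reach 2.26 and 1.87.

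Markers of other cell types moved in the same comparisons. All 8 measured fibroblast and progenitor markers were above 0 in both comparisons with normal muscle, with medians of 0.44 for regenerated and 0.80 for overloaded muscle. Thy1 and Osr1 were not well above background in normal muscle, so theirs were at-least differences, which could not fall below 0. That of Thy1 in regenerated muscle was only 0.03. Counted over genes detected on each of the compared arrays, 32.8% lay above 0 for regenerated and 34.4% for overloaded muscle. Pdgfra, which defines the fibroblast progenitors, read 243% in regenerated overloaded, 219.6% in overloaded, 216% in regenerated and 129.96% in normal muscle. The summed level of the list was 10107% in regenerated overloaded, 10384% in overloaded, 7678% in regenerated and 5900% in normal muscle. That sum runs over probes of unlike brightness and comes mostly from Dcn and Mfap5. In regenerated overloaded against overloaded muscle 5 of the 8 markers were above 0, with a median of 0.27. Of 8 macrophage markers 7 were above 0 in each comparison with normal muscle, with medians of 0.57 and 0.75. Their summed level was 4396% in regenerated overloaded, 4031% in overloaded, 3485% in regenerated and 2259% in normal muscle, most of it from C1qa and C1qb. In regenerated overloaded against overloaded muscle 6 of these 8 were above 0, with a median of 0.09. All 10 fibre markers were below 0 in both comparisons with normal muscle, with medians of -0.25 and -0.32. Most genes above background on both arrays were also below 0 there, with medians of -0.12 and -0.13. Platelet markers Ppbp and Gp9 were at or near background, and Pf4, also made by macrophages, read 358% to 443% in the manipulated muscles and 199% in normal muscle. In the same comparisons the medians were 0.15 and 0.16 for 6 endothelial markers, 0.18 and 0.35 for smooth muscle, and 0.26 and 0.31 for the 1 lymphocyte marker measured. The 3 tendon markers had medians of -0.32 and -0.24 there, 1.22 in regenerated overloaded against regenerated and 0.57 against overloaded muscle, with Tnmd and Comp past 2-fold in the comparison with regenerated muscle. Comp, a matrix protein of tendon and cartilage, was also 3.27-fold higher in regenerated overloaded than in overloaded muscle, the comparison in which Ltbp2 passed 2-fold. The part of these cells in the values of the 10 genes was not tested, and in bulk muscle fewer cells of a type and less RNA per cell cannot be told apart.

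Profiles over the 4 arrays were compared with those of 9128 other named genes above background on all arrays, by the distance between log2 profiles centred on their own means. This was done for the ligands and latency proteins that spanned at least 2-fold, Ltbp1 and Ltbp2. The 5 closest to Ltbp1 were Plvap (distance 0.054), an endothelial protein, Glb1l (0.077), Gpnmb (0.093), a macrophage glycoprotein, Fst (0.11), the activin and myostatin antagonist follistatin, and Pi15 (0.12). The 5 closest to Ltbp2 were Bicd1 (0.22), Il17re (0.27), Sorcs2 (0.33), Serpina3n (0.36) and Emb (0.42). Serpina3n, a protease inhibitor, read 287% in regenerated overloaded, 105% in overloaded, 185% in regenerated and 59.0% in normal muscle. The profile of Ltbp1 ranked 43 among those closest to Ltbp2, that of Ltbp2 ranked 717 for Ltbp1, and Tgfbr2 ranked 178 for Ltbp1. With 4 arrays such distances are a description of these arrays alone.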

How the data were processed

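The deposited scanner files give, per the file headers, processed signal as a fluorescence intensity made with Agilent Feature Extraction 11.5.1.1 (10.10.1.1 per the submitters' processing notes), background-subtracted and not scaled between arrays, together with median signals, local backgrounds and flags (other). The authors' deposited table gives an intensity equal to that signal times 1 constant per array; how the constant was chosen is not given in the sources used here. Each array had 58717 probe spots; 406 to 451 carried an outlier flag and were left out, and none was saturated.

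Each array was scaled to its 75th percentile on the log2 scale. Repeated spots were then averaged per probe, and the brightest probe stood for its gene. A probe counted as well above background where most of its spots did. A gene was measured where this held on at least 1 of the 2 arrays. The dim array was then set at the higher of its own signal and the lowest probe signal well above background there. This gave an at-least fold, which is the measured fold where the dim array's own signal was the higher. Genes were called at 2-fold. Technical SE used the spread between spots pooled in 20 bins of signal. By accession, 18643 of 30367 probes matched 15637 symbols (RefSeq, GRCr8). The genes named were the 10 members, the listed genes past 2-fold with up to 4 others per list, and the 5 closest profiles. The members and lists were chosen with earlier results of these data known. Normexp (on median spot and local background signals, offset 50), quantile and cyclic loess scaling used limma 3.58.1; the calculations were tested on simulated data. Other alternatives were the authors' values, the mean over probes, leaving out the 16 outer rows, 2 filters and a 1.5-fold limit. A percentile over probes above background on all arrays was added after seeing the data. The values of 1 listed target gene are not reported here.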

Additional observations from a re-analysis of the deposited data

Results flagged for a closer look

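The same contrast had opposite signs in the 2 settings for 3 genes; with 1 array per group the difference was not tested. For Tgfb1 the overload difference was -0.13 after injury and 0.62 without it, and the regeneration difference -0.08 with overload and 0.67 without it, a difference of differences of -0.75. With normexp the Tgfb1 overload difference without injury was 0.01 and the difference of differences -0.18. For Ltbp4 the overload difference was -0.43 after injury and 0.19 without it, and the regeneration difference -0.23 with overload and 0.38 without it, a difference of differences of -0.61. For Tgfb2 the overload difference was -0.11 after injury and 0.32 without it, a difference of differences of -0.43. With the mean over both Tgfb2 probes the overload difference after injury was 0.05, so that the signs were no longer opposite, and the difference of differences -0.17. That mean includes the dimmer probe, whose 2 spots on the regenerated overloaded array read 3.55% and 11.7%. Of the 3 genes, Ltbp4 alone had both overload differences, and both regeneration differences, beyond 2 technical SE.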

How the results depend on the processing

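The count of 2 genes past 2-fold in regenerated against normal muscle was 0 with normexp, and the count of 0 in overloaded against normal muscle was 1 with the authors' deposited values. At 1.5-fold the counts were 4 for regenerated against normal, 4 for overloaded against normal, 1 for regenerated overloaded against regenerated, 2 for regenerated overloaded against overloaded, and 3 for the difference of differences. With the mean over probes the first count was 3, Tgfbr2 being added. That mean took the dimmer Tgfbr2 probe's signal in normal muscle as measured, though it was not well above background. Under the other alternatives run, the counts did not change. Of 336 single-gene values under alternatives, 281 moved by less than 1 technical SE and 55 by more, and no value past 2-fold changed sign. Ltbp2 in regenerated overloaded against overloaded muscle stayed between 1.16 and 1.37. Tgfb1 in overloaded against normal muscle ranged between 0.01 and 0.80; its signal on the normal array averaged 36.8 intensity units over a local background of 43.1. Below that brightness the arrays limit what can be read. The difference of differences was below 0 for 8 of 9 genes under every scaling, and its median ran between -0.57 and -0.18, and that over all genes between -0.06 and 0.10; without the filter on dim probes 9 of 10 were below 0, with 0.12 over all genes. Over all genes, the 324 past 2-fold in regenerated against normal muscle were 96 with normexp, 2442 without the filter on dim probes and 200 with detection required on both arrays. The share higher was 64.8%, against 66.7% with normexp, 57.9% with quantile scaling, 77.97% with the authors' values and 75.7% with the added percentile; without the filter it was 31.4%, so that most calls were lower. For overloaded against normal muscle the 542 were 180 with normexp and 5707 without the filter. There the share higher was 75.6%, against 73.3% with normexp, 70.4% with quantile scaling, 89.6% with the authors' values and 86.3% with the added percentile; without the filter it was 19.2%. In the same order of settings (normexp, no filter, both arrays), the 342 of regenerated overloaded against regenerated muscle were 100, 1461 and 227, and the 297 against overloaded muscle 69, 1438 and 144. No paired analysis was possible because each group has 1 array.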
